A study of Physcomitrium patens with 8 samples.

Results

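Transcript levels in the atg5 line of the moss Physcomitrium patens were set against those of wild type (WT) after drying and rehydration, on the 2 dye-swapped Rehydration arrays out of the 8 arrays of the study. These 2 arrays are all those whose labels name Rehydration as the treatment of both channels. The atg5 line is a knockout of autophagy related gene 5 and is deficient in autophagy. Both genotypes were protonemata, the filamentous growth form of the moss, grown for 7 days at 25 °C in continuous light on medium with ammonium tartrate and glucose. For Rehydration, colonies were kept for 24 h over silica gel in a closed jar and then for 24 h on fresh medium. The other states, with 2 arrays each, were Hydration (colonies after 7 days of culture), ABA (24 h on 50 µM abscisic acid) and Dehydration (24 h over silica gel). The labels give no word on whether colonies received abscisic acid before drying.

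On Rehydration array 1 atg5 carried the dye Cy5 and WT carried Cy3, and on array 2 the dyes were exchanged. The labels call the arrays biological replicates without saying whether they came from separate cultures, so the spread between them may be technical. The SEs and p-values of the fit to all 8 arrays rest on a spread pooled over the states. They do not measure the agreement of the 2 Rehydration arrays alone, which was lower than that of the other pairs. With 1 knockout line in the labels, effects of the missing ATG5 and of anything else in which the line departs from WT cannot be told apart. The arrays measure RNA from whole colonies, so fewer cells of a kind and less RNA per cell cannot be told apart.

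Autophagy is the pathway by which a cell encloses parts of its cytoplasm in a double-membrane vesicle, the autophagosome, and delivers them to the vacuole for breakdown. ATG5 is joined to ATG12, and this conjugate promotes the attachment of ATG8 to the membrane lipid phosphatidylethanolamine, a step in forming autophagosomes. Protonemata of this moss become tolerant of drying after treatment with abscisic acid, the plant hormone of water stress, and resume growth when water returns. In the array files the identifiers carry neither gene names nor probe sequences, and 0 identifiers occurred in the given gene table of 27567 genes. Genes are therefore given by identifier and without a function. The transcript of the deleted gene and markers of protonemal tissue were not analysed here.

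The Rehydration arrays were dimmer than the others. In atg5, 29.2 and 23.4% of the 38316 gene spots were well above background on arrays 1 and 2, against 19.3 and 30.6% in WT, and the channels of the other states ranged from 37.1 to 53.5%. On each array the Cy5 channel had the higher share. The median background-subtracted signal was 15 and 24.5 intensity units in atg5, against 21 and 9.5 units in WT, and 25.5 to 42.5 units in the channels of the other states. No gene spot was saturated (0 on both Rehydration arrays), and 66 and 44 spots bore an outlier mark. Spike-in RNAs added in known ratios spanned 3.67 and 3.35 in the log2 ratio on the Rehydration arrays, against 3.04 to 3.64 on the others. Rehydration lay at position 4 of both slides, so treatment and position on the slide cannot be told apart. The 2 Rehydration arrays also differed more from each other in level than the arrays of other states, and in the same way in both genotypes. The level of 1447 probes differed at least 2-fold between them with the same sign in atg5 and WT, against 681, 694 and 736 probes between the 2 arrays of Hydration, ABA and Dehydration. The probes with opposite signs numbered 0. Each ratio is taken within 1 array. The part of this difference between arrays in the ratios was not tested.

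After rehydration 2832 of 19664 probes differed between atg5 and WT (percent called 14.4, limma adjusted p under 0.05), representing 2375 of 15446 loci. Of these probes 1381 were higher in atg5 (percent called 7.02) and 1451 were lower (percent called 7.38). With the replicate number as a block, which stands for dye orientation and slide, the same test called 4352 probes, 2152 higher and 2200 lower, and these held all 2832. Most differences were small: the called probes had median log2 differences of 0.52 (higher) and -0.53 (lower), the smallest called difference was 0.29, and 526 called probes were higher by 1.5-fold or more and 606 lower by as much. At least 2-fold were 117 higher probes of 104 loci (percent called 0.595) and 179 lower probes of 144 loci (percent called 0.91). At least 3-fold were 19 higher and 33 lower. With the scanner software's processed signals, to which no offset was added, 3981 probes were called, and 1318 were at least 2-fold higher and 1205 lower by 2-fold or more. Over all tested probes the log2 difference of atg5 over WT had a median of 0.01 with quartiles at -0.11 and 0.12, and ran from -2.66 to 2.49. Its SD across probes was 0.297, against 0.424 in Hydration, 0.302 in ABA and 0.345 in Dehydration. The fit to the Rehydration arrays alone called 2815 probes, of which 2520 were also called in the fit to all 8 arrays.

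The 2 Rehydration arrays were less alike in their ratios than those of the other states. Across probes, not independent of one another, their log2 ratios correlated at 0.667, against 0.843 for Hydration, 0.716 for ABA and 0.775 for Dehydration. Of 19621 tested probes measured on both arrays, 7686 (39.2%) had opposite signs on the 2 arrays. Among the 2823 called probes measured on both, 0 had opposite signs, an outcome that follows largely from calling them on the mean of the pair. Probes taken from 1 array were read on the other. The 87 probes at least 2-fold higher in atg5 on array 1 had a median log2 ratio of 1.29 on array 2, and 73 of them were at least 2-fold higher there too. The 202 at least 2-fold lower on array 1 had a median of -1.14 on array 2, with 133 at least 2-fold lower. In the other direction, 186 probes at least 2-fold higher on array 2 had a median of 0.91 on array 1, and 201 at least 2-fold lower had a median of -1.17. The same sign was found on the other array for 86 of 87, 200 of 202, 186 of 186 and 197 of 201 probes in this order. Array 2 thus held more than double the number of large rises of array 1 and about as many large falls.

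**Figure D1:**
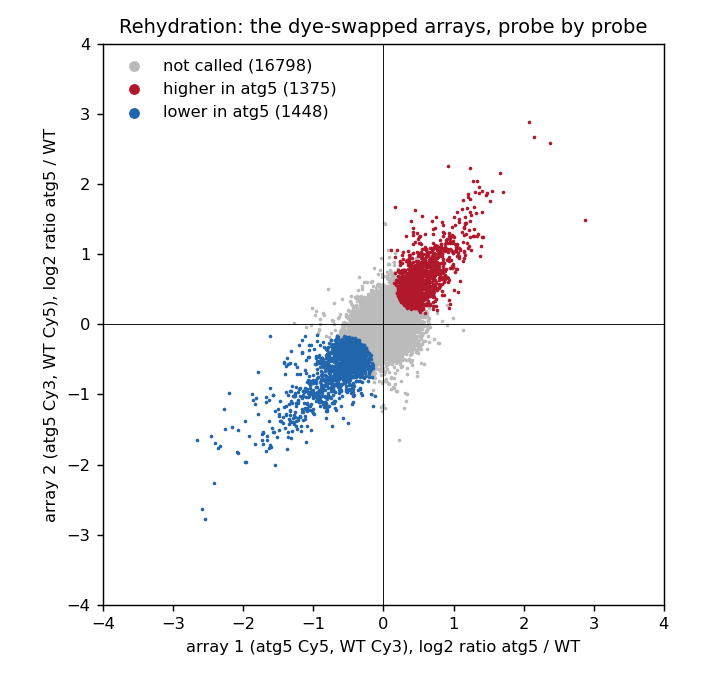
Log2 ratio of atg5 over WT for each tested probe on Rehydration array 1 (horizontal axis) and array 2 (vertical axis), with the dyes exchanged between them. Called probes, coloured by direction, lie in the quadrants where both arrays have the same sign, and uncalled probes (grey) surround 0; the correlation across probes is 0.667.

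How many probes could be called followed their brightness. When the 19664 tested probes were put in 8 classes of equal size by mean brightness on the Rehydration arrays, the 2458 dimmest gave 0 called probes and the brightest class gave 1311, 637 higher and 674 lower in atg5. The class below the brightest gave 804 called (32.7%). The median size of the log2 difference was 0.06 in the dimmest class and 0.39 in the brightest, while the median SE was 0.109 and 0.101. A probe was counted as above background in a genotype on an array where the scanner software marked it so. Of the tested probes 35.2% were above background in none of the 4 Rehydration channels, having passed through another state, and 12 of these 6927 probes were called. In all 4 channels 6145 probes were above background, and 2170 of them (35.3%) were called, 982 higher and 1188 lower in atg5. The counts over all tested probes therefore rest mainly on the brighter probes, and for dim probes a missing call says little.

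**Figure D2:**
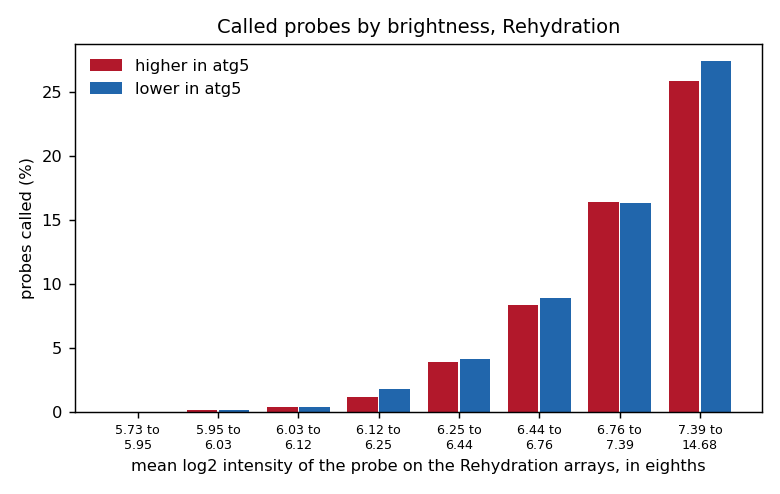
Percent of tested probes called higher or lower in atg5 after rehydration, by brightness on the Rehydration arrays. The 8 classes of equal size run from the dimmest (left) to the brightest (right). Calls are near 0 in the dimmest classes and most frequent in the brightest, with similar shares in both directions.

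Some probes were above background in 1 genotype alone. On both arrays in atg5 and on neither in WT were 271 probes, and 87 of them were called, all higher in atg5. The reverse pattern held for 191 probes, of which 75 were called, all lower in atg5. This direction follows from how the probes were chosen. For such probes the dim genotype has only an upper bound, and the fold is given as a minimum in this sense. At the 4 probes below the minimum equals the fitted fold and makes no allowance for the spread between arrays. Their log2 ratios on array 1, in the order named, were smaller in size than the fitted differences, at 0.94, 0.80, -0.71 and -0.83. Pp1s17_281V6.1 had log2 intensities of 8.91 and 8.72 in atg5 on arrays 1 and 2, against 7.97 and 7.42 in WT, where it was not well above background. Its fold of atg5 over WT was at least 2.17, at a log2 difference of 1.12 ± 0.102 (SE, n = 2, limma adjusted p = 6.39e-05). It was also called higher in atg5 in the other 3 states, at log2 differences of 0.85 in Hydration, 0.80 in ABA and 1.00 in Dehydration. In Hydration WT was again not well above background, so the value there is a minimum. Pp1s73_170V6.1 had 8.63 and 8.29 in atg5, against 7.83 and 7.27 in WT, and was at least 1.88-fold higher (0.91 ± 0.0922, limma adjusted p = 1.16e-04). In Hydration, ABA and Dehydration this probe was not called (-0.04, -0.01 and -0.17, adjusted p = 0.782, 0.955 and 0.253 in limma's fit). It was well above background in neither genotype in Hydration, so the value there says little. In ABA it was so on only 1 array in atg5. In the other direction, Pp1s57_133V6.1 had 7.05 and 7.31 in atg5, not well above background, against 7.76 and 8.43 in WT, and was at least 1.89-fold lower (-0.91 ± 0.11, limma adjusted p = 3.17e-04). Pp1s122_138V6.1 had 7.04 and 7.52 in atg5, against 7.87 and 8.45 in WT, and was at least 1.84-fold lower (-0.88 ± 0.101, limma adjusted p = 2.39e-04). Pp1s57_133V6.1 was also called lower in Hydration (-0.67) and Dehydration (-0.60), but not in ABA (-0.34). In ABA and Dehydration atg5 was not well above background at this probe, so those values are limited by the background. Pp1s122_138V6.1 was also called lower in Hydration (-1.56), where atg5 was again not well above background and the value is a minimum. It was not called in ABA and Dehydration (0.16 and 0.29). After rehydration, at each of these 4 probes both atg5 values lay on one side of both WT values.

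Pp1s80_148V6.1 and Pp1s77_290V6.1 had the largest fitted rises after rehydration, and did not differ from each other beyond their SE. With processed signals the log2 differences were 2.84 and 2.93, and Pp1s33_372V6.1 exceeded both at 4.09. Pp1s80_148V6.1 had log2 intensities of 11.69 and 16.67 in atg5, against 9.61 and 13.78 in WT. Both genotypes were far brighter on array 2 than on array 1, so that the atg5 value of array 1 lay below the WT value of array 2, while on each array atg5 was the higher. The background-subtracted signals before normalisation were 1397 and 25571 units in atg5, against 69.5 and 4268 units in WT. The array ratios of 2.08 and 2.89 gave a log2 difference of 2.49 ± 0.161 (SE, n = 2, limma adjusted p = 1.99e-05). In the other states atg5 stood between 16.32 and 17.20 and WT between 10.90 and 11.94 on the arrays with a kept spot, with differences of 5.78, 5.10 and 5.05 in Hydration, ABA and Dehydration. The Dehydration value comes from array 1 alone, since the spot on array 2 was left out as an outlier.

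Pp1s77_290V6.1 had log2 intensities of 12.36 and 12.23 in atg5, against 9.99 and 9.65 in WT. The genotypes were clearly separated and the arrays close to each other, with ratios of 2.37 and 2.59 (log2 difference 2.48 ± 0.128, limma adjusted p = 4.58e-06). In dried colonies its level was 11.97 and 11.81 in atg5, against 7.35 and 7.15 in WT, a difference of 4.64 ± 0.128. The level in atg5 thus lay near its level in dried colonies, whereas that in WT was higher by more than 2 on this scale. The difference between genotypes was smaller after rehydration than in Dehydration by 2.17 ± 0.181 on the log2 scale (limma adjusted p = 9.55e-05 for the contrast).

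The leading falls were found where WT was bright after rehydration. Pp1s22_377V6.1 had log2 intensities of 9.41 and 9.68 in atg5, against 11.96 and 12.45 in WT. Its array ratios were -2.55 and -2.77 (log2 difference -2.66 ± 0.124, n = 2, limma adjusted p = 3.04e-06). In Dehydration it had 8.78 and 8.98 in atg5, against 8.95 and 8.90 in WT, where the genotypes overlapped and the difference was -0.05 (limma adjusted p = 0.846). It was not called in ABA (-0.18), but was called lower in atg5 in Hydration (-0.58, limma adjusted p = 0.00497), where atg5 was not well above background. Pp1s11_295V6.1 had 10.09 and 10.12 in atg5, against 12.68 and 12.75 in WT (ratios of -2.59 and -2.64, log2 difference -2.61 ± 0.103, limma adjusted p = 1.22e-06). In Dehydration it had 10.85 and 11.17 in atg5, against 11.66 and 11.83 in WT. This probe was already called lower in atg5 in Hydration, ABA and Dehydration, at log2 differences of -1.37, -0.76 and -0.73. In ABA and Dehydration the difference was smaller. In Hydration atg5 was not well above background, so that the fold there, at least 2.48, is a minimum. At Pp1s22_377V6.1 both genotypes were higher after rehydration than in Dehydration, WT more so, while at Pp1s11_295V6.1 WT was higher and atg5 lower.

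**Figure D3:**
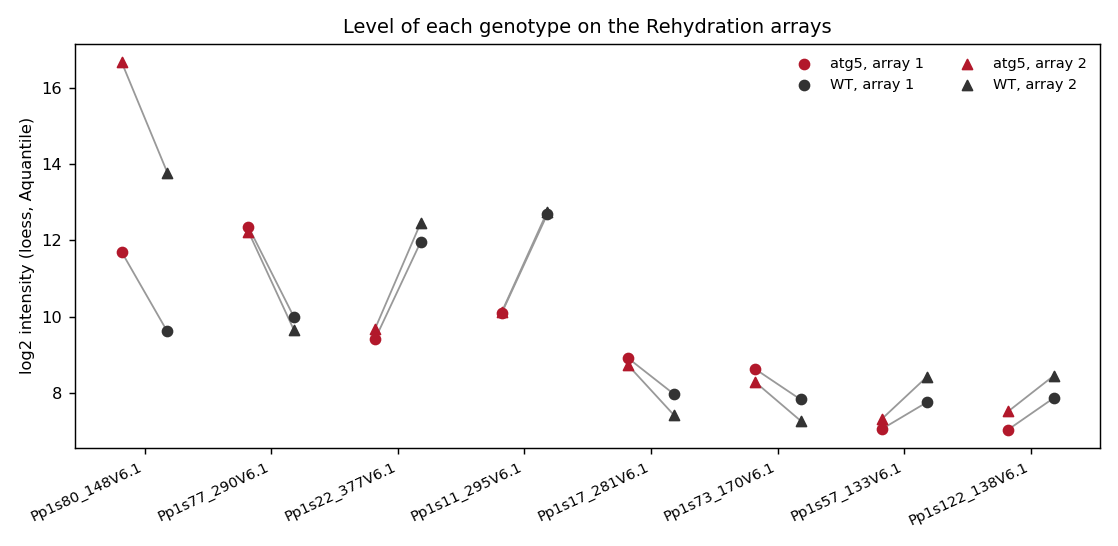
Log2 intensity of atg5 (left) and WT (right) on each Rehydration array for named probes, among them the 2 largest rises and 2 largest falls. At Pp1s80_148V6.1 the Rehydration points of both genotypes are far apart between arrays. At the probes that fell, the WT points stand above all atg5 points in Rehydration.

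Behind the ratios, the levels of each genotype were compared by description only. They were scaled to a common distribution of intensity, on which the median level of all tested probes changed by -0.08 in atg5 and -0.07 in WT between Dehydration and Rehydration. Relative to the spike-in RNAs, the mean log2 level of the tested probes differed by -1.61 between Rehydration and Dehydration and by -1.23 between Rehydration and Hydration, so changes of level hold only relative to the other probes. The 179 probes at least 2-fold lower in atg5 changed between Dehydration and Rehydration by a median of 0.36 in atg5 and 1.51 in WT. Of them 56 were at least 2-fold higher in Rehydration than in Dehydration in atg5, against 118 in WT, and 22 were at least 2-fold lower in atg5, against 2 in WT, which are not named since levels have no test here. The 117 probes at least 2-fold higher in atg5 changed by a median of 0.29 in atg5 and -0.20 in WT. In this list 29 were at least 2-fold higher in Rehydration than in Dehydration in atg5 and 33 in WT, whereas 13 were at least 2-fold lower in atg5 and 33 in WT. Over all 19664 tested probes, 818 were at least 2-fold higher in atg5 and 1440 in WT. At least 2-fold lower were 1394 in atg5 and 1522 in WT, so rises were fewer in atg5 over all probes as well. Both lists were chosen by the Rehydration levels that enter these changes, so the gap between genotypes is partly given by the choice.

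Several probes of 1 locus and repeated spots show how far such values spread. Probes of 1 locus have identifiers with different endings, and whether they measure the same transcript was not tested. Their spread is therefore not a measure of error alone. Of 2883 loci with more than 1 tested probe, 677 had a called probe, and in 586 of these all probes had the same sign. In 210 loci every tested probe was called one way. The median span of the log2 difference over the probes of such a locus was 0.24. Probes called in both directions occurred in 3 loci, Pp1s179_14, Pp1s342_16 and Pp1s97_54, named after their values were seen. The 15 probes printed 10 times each had a median SD over spots of 0.132 (0.0544 to 0.311) in the log2 ratio on the Rehydration arrays, against 0.0952 on the others. Of the 12 such probes that were tested, limma called 0, with 3 at an unadjusted p under 0.05 and 2 called with the replicate block, at log2 differences of -0.51 to 0.23. Over all tested probes the median SD between the 2 Rehydration arrays was 0.121.

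The question of how far the genotype difference after rehydration was already present in other states was addressed by comparing calls. The percent called was 31.8 in Hydration, 13.5 in ABA and 18.9 in Dehydration. Probes higher in atg5 made 15.5, 8.57 and 12.3% of those tested in these states, and probes lower in atg5 made 16.4, 4.88 and 6.59%. Of the 1381 probes higher in atg5 after rehydration, 477 were also higher in Hydration, 437 in ABA and 545 in Dehydration. The 545 shared with Dehydration make 39.5% of the Rehydration list and 22.5% of the 2420 probes higher in Dehydration. Of the 1451 probes lower after rehydration, 474 were also lower in Hydration, 182 in ABA and 287 in Dehydration, the last being 19.8% of the Rehydration list and 22.2% of the 1295 probes lower in Dehydration. Calls of opposite direction were made in Hydration for 265 of the probes higher after rehydration (19.2%, against 16.4% of all tested probes lower in Hydration) and for 237 of those lower after rehydration (16.3%, against 15.5% higher in Hydration), shares near those of all probes. In ABA the opposite calls were 72 and 138, and in Dehydration 69 and 119, in the same order. Same-numbered arrays of different states share a slide and a dye orientation. Their part in these shared calls was not tested.

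Of the 117 probes at least 2-fold higher in atg5 after rehydration, 56, 56 and 57 were also called higher in Hydration, ABA and Dehydration, and 41 in all 3 of them. A further 47 were called higher in none of the 3. Of the 179 probes at least 2-fold lower, 82, 38 and 54 were also called lower in Hydration, ABA and Dehydration, 15 in all 3 and 59 in none. Over all 19664 tested probes, 978 were called higher in all 3 states and 285 lower. At least 1 call in the opposite direction was made for 30 of the 117 and 42 of the 179. In Hydration alone opposite calls numbered 25 and 26, where 16.4 and 15.5% of all tested probes were lower and higher. Shares of all tested probes were not computed for a call in none of the states or for an opposite call in any, so these counts have no reference. Nearly all of these probes were bright: 103 of the 117 and 176 of the 179 were above background in all 4 Rehydration channels. The difference in overlap between rises and falls was not tested.

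The change of the atg5 effect between states was tested as a contrast in the same limma fit. The effect after rehydration differed from that in Dehydration at 2388 probes (percent called 12.1), 810 more positive (percent called 4.12) and 1578 more negative (percent called 8.02). It differed from that in ABA at 2152 probes (percent called 10.9), 842 more positive (percent called 4.28) and 1310 more negative (percent called 6.66), and from that in Hydration at 4413 probes (percent called 22.4), 2191 more positive (percent called 11.1) and 2222 more negative (percent called 11.3). With the replicate block these counts were 4367, 4013 and 6770. The 2388 probes of the contrast with Dehydration comprise 863 called after rehydration alone, 1012 called in Dehydration alone, 193 called in both with the same sign, 188 called in both with opposite signs, and 132 called in neither. For ABA 959 were called after rehydration alone and 695 in ABA alone, and for Hydration the numbers were 824 and 2545. Leaving out Rehydration array 1 gave 1405 probes against Dehydration, and leaving out array 2 gave 1258. Leaving out Dehydration array 1 or 2 gave 1155 or 1106. With processed signals the excess of negative contrasts was lost, at 358 more positive and 347 more negative against Dehydration (705 in all) and 524 and 481 against ABA (1005 in all).

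**Figure D4:**
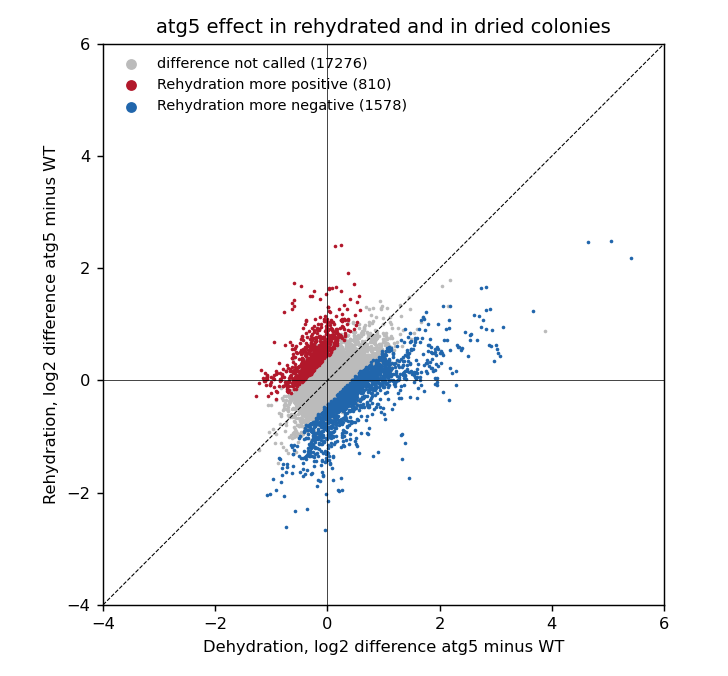
Log2 difference of atg5 over WT in Rehydration (vertical axis) against that in Dehydration (horizontal axis) for each tested probe, with probes whose effect differed between the states in limma's contrast coloured. The probes high in Dehydration lie below the diagonal, and the falls of Rehydration form a tail near 0 on the horizontal axis.

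A set of 134 probes was called at least 2-fold higher in atg5 in each of Hydration, ABA and Dehydration, where such probes made 2.04, 1.16 and 1.74% of those tested, at median log2 differences of 1.73, 1.49 and 1.80. After rehydration their median was 0.57 (-0.17 to 2.49). In limma's test 81 of the 134 (60.4%, against 7.02% of all tested probes) were higher in atg5 after rehydration, 53 were not called and 0 were lower, also 0 at an unadjusted p under 0.05 and 0 with the replicate block. At least 2-fold higher were 25. The share of 7.02% takes in dim probes, of which few were called. Of the 6145 tested probes above background in all 4 Rehydration channels 982 were higher, and of the brightest class 25.9%. The atg5 effect was smaller than in Dehydration at 118 of the 134 by the contrast. The probes were chosen for high values in Dehydration, which by itself lowers the value read in another state. With processed signals the median was 1.30 in Rehydration and 2.27 in Dehydration, and the contrast called 32. With a smaller background offset of 16 the contrast called 89. On the Rehydration arrays 115 of the 134 were above background on both arrays in atg5, against 76 in WT, and for the remainder the ratio in Rehydration is limited by the background. Among the 76 that were above background in all 4 Rehydration channels, and fitted with probes of this kind alone, the medians were 0.72 in Rehydration and 1.67 in Dehydration, and the contrast called 68. The 343 probes at least 2-fold higher in Dehydration with or without a call in other states included 147 that were higher after rehydration and 10 that were lower, with a median of 0.35. Of 221 probes at least 2-fold lower in Hydration (percent called 1.12), 76 were lower after rehydration and 20 higher, with a median of -0.28. Over all tested probes the median after rehydration was 0.01.

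A further group stood apart from every other state, in that the probe was called after rehydration and its effect differed in the same direction from the effects in Hydration, ABA and Dehydration. There were 318 such probes higher in atg5 (1.62% of those tested, 279 loci) and 395 lower (2.01%, 331 loci), and with the replicate block 617 and 706. The medians below are fixed in part by this choice of probes. The 318 had a median log2 difference of 0.66 after rehydration and of -0.22, -0.16 and -0.14 in Hydration, ABA and Dehydration. The 395 had a median of -0.77 after rehydration and of 0.12, 0.14 and 0.02 in these states. Of the 117 probes at least 2-fold higher after rehydration 55 belonged to this group, and of the 179 at least 2-fold lower 125. Without Rehydration array 2 this left 111 higher and 201 lower, and processed signals gave 262 and 130.

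The probes with the largest contrasts show these patterns in single values. Pp1s239_24V6.1 had log2 intensities of 11.57 and 11.66 in atg5 after rehydration, against 9.43 and 8.98 in WT (log2 difference 2.41 ± 0.183, limma adjusted p = 2.42e-05). In Dehydration it had 11.91 and 12.21 in atg5, against 11.75 and 11.87 in WT, and the genotypes did not differ in limma's test (0.25, adjusted p = 0.407). Its contrast of Rehydration minus Dehydration was 2.16 ± 0.258 (limma adjusted p = 6.07e-04). With processed signals the contrast was larger but no longer called, at 3.0 ± 0.949 (limma adjusted p = 0.132). After rehydration WT lay below its level in dried colonies by more than 2 on the log2 scale, and atg5 did not.

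Pp1s42_233V6.1 was likewise higher in atg5 after rehydration, with 13.22 and 13.41 in atg5, against 11.98 and 11.17 in WT. In Dehydration it had 12.05 and 13.23 in atg5, against 12.50 and 13.97 in WT. From Dehydration to Rehydration WT was thus lower and atg5 higher on each array, with little change in WT on array 1. Its difference was 1.74 ± 0.182 after rehydration and -0.60 in Dehydration, and the contrast was 2.33 ± 0.258 (limma adjusted p = 3.89e-04). Against ABA, where the difference was -0.39, the contrast was 2.13 (limma adjusted p = 6.99e-04). Between ABA and Rehydration the level in WT was lower by more than 2, and that in atg5 by less than 1. In Hydration the probe was dim in both genotypes, at 6.43 and 6.36 in atg5, against 6.52 and 6.54 in WT.

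At Pp1s72_43V6.1 the direction turned over in the normalised values. It had 14.17 and 14.49 in atg5 after rehydration, against 16.44 and 15.70 in WT, and in Dehydration 13.85 and 14.09 in atg5, against 12.43 and 12.59 in WT. The array ratios of -2.27 and -1.21 gave -1.74 ± 0.208 after rehydration (limma adjusted p = 3.11e-04), against 1.46 ± 0.208 in Dehydration (limma adjusted p = 8.9e-04). The contrast was -3.20 ± 0.294 (limma adjusted p = 1.48e-04). Before normalisation its background-subtracted signals after rehydration were 12040 and 5854 units in atg5, against 6912 and 17003 units in WT. On array 1 atg5 was thus the brighter, and the negative sign there arose in the normalisation. Median centring in place of loess gave -0.48 ± 0.915 after rehydration. Pp1s442_22V6.1 likewise was lower in atg5 after rehydration, with 9.5 and 9.17 in atg5, against 10.61 and 10.85 in WT (-1.39 ± 0.128). On ABA it was higher in atg5, with 11.74 and 11.49 in atg5, against 10.19 and 10.12 in WT (1.46 ± 0.128), and the contrast was -2.86 ± 0.181 (limma adjusted p = 2.26e-05). In Hydration its difference was -1.47, close to that after rehydration. Its background-subtracted signals after rehydration were 276 and 114.5 units in atg5, against 213 and 514.5 units in WT. Here too atg5 was the brighter on array 1 before normalisation.

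Pp1s33_372V6.1 had large negative contrasts, the largest of the named probes in the reported fit but not with processed signals. It had log2 intensities of 11.54 and 9.05 in atg5 after rehydration, against 8.67 and 7.56 in WT, which was above background on 1 of the 2 arrays. The WT value is therefore limited by the background, and the arrays differed widely, with ratios of 2.87 and 1.49 (log2 difference 2.18 ± 0.252, limma adjusted p = 2.5e-04). In Hydration, ABA and Dehydration the differences were 6.01, 5.85 and 5.42. The contrasts of Rehydration with these states were -3.82, -3.67 and -3.24, each ± 0.357 (limma adjusted p = 7.93e-05, 2.28e-04 and 3.89e-04). With processed signals the difference after rehydration was 4.09, and the contrast with Dehydration was -2.21 ± 0.563 (limma adjusted p = 0.0872).

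Against Hydration, Pp1s149_4V6.1 and Pp1s372_62V6.1 had the largest positive contrasts. Pp1s149_4V6.1 had 16.31 and 16.98 in atg5 after rehydration, against 15.39 and 14.72 in WT. Its difference was 1.59 ± 0.227 after rehydration (array ratios of 0.92 and 2.26, limma adjusted p = 9.74e-04), so that leaving out array 2 gave 0.92. It was -1.36 ± 0.227 in Hydration, where its level was below 11 in both genotypes. The contrast was 2.96 ± 0.321 (limma adjusted p = 1.84e-04). Pp1s372_62V6.1 had 11.31 and 12.21 in atg5 after rehydration, against 9.91 and 10.60 in WT, and was lower in atg5 in Hydration and ABA. Its differences were -1.22 in Hydration, -0.55 in ABA, -0.27 in Dehydration and 1.5 ± 0.0898 in Rehydration. The contrasts were 2.72 with Hydration and 2.06 with ABA (limma adjusted p = 7.06e-06 and 2.09e-05). Both genotypes were brighter at this probe after rehydration than in any other state, atg5 more so.

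**Figure D5:**
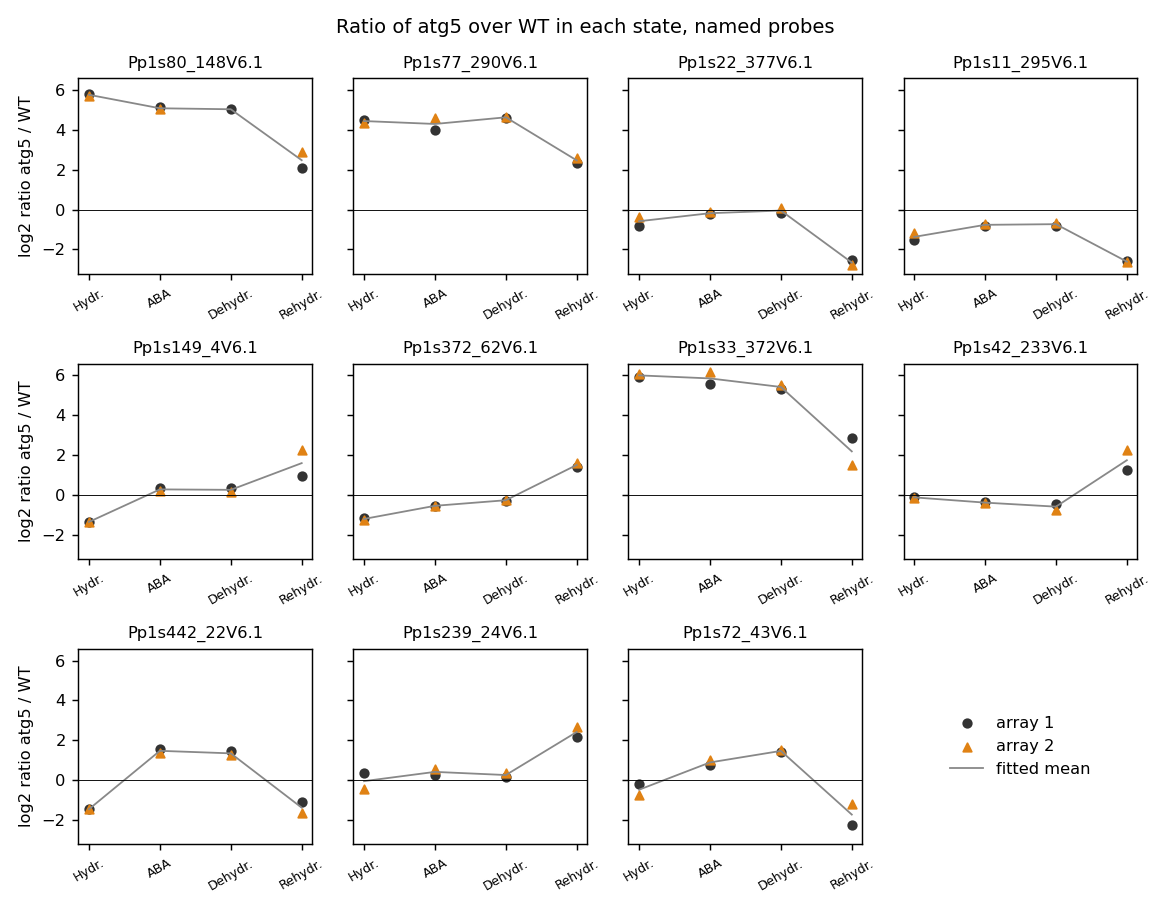
Log2 ratio of atg5 over WT on each array for the probes named by their Rehydration difference or a contrast, in Hydration, ABA, Dehydration and Rehydration. Points above 0 are higher in atg5; Pp1s72_43V6.1 and Pp1s442_22V6.1 lie above 0 in ABA and Dehydration and below 0 in Rehydration, and Pp1s33_372V6.1 lies lower in Rehydration than elsewhere.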

How the data were processed

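Per the file headers Agilent Feature Extraction 9.5.3.1 wrote the scanner files, whereas the submitters' processing notes name version 9.1. The deposited intensity values are median pixel signals and local background medians, plus processed signals that the software background-subtracted and dye-normalized. The deposited table's 16 columns equal these processed signals. The deposited log10 ratios, exactly 0 at 39.3 to 39.7% of gene spots on the Rehydration arrays, were not tested. Of columns with per-sample values, 0 were left unmapped.

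Median signals (the files used here hold no mean signals of spots) were corrected by normexp (offset 50) and normalized by loess within each array, with control spots at weight 0 (limma 3.58.1, R 4.3.3). Outlier spots were dropped and spots of a probe averaged. A probe was kept if, in 1 or more of the 8 combinations of genotype and state, both arrays marked it well above background (19741 of 38181), and 77 of them lacked both spots in some state. Log2 ratios of atg5 over WT were fitted with lmFit and eBayes over all 8 arrays, 1 coefficient per treatment, with Benjamini-Hochberg adjustment over 19664 probes and calls at an adjusted p under 0.05. The scripts were tested on simulated data. Levels are loess and Aquantile log2 intensities, given as a description. A minimum fold sets the bright group's mean against, per array, the higher of the dim probe's own value and the lowest signal well above background.

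Deviations of same-numbered arrays, which share slide and dye orientation, correlated at 0.271 to 0.535 in all 6 pairs of treatments, so the numbers pair the arrays, and results of a fit blocked on the number stand beside those without it. Named probes are the 2 largest rises and 2 largest falls in Rehydration and in each contrast, and 2 each way that were above background in 1 genotype alone, with 1 probe per locus, the brightest, the same sign on both Rehydration arrays and an adjusted p under 0.05. Comparison, rules and lists were chosen with earlier results of these data known. Gene lists by function were not analysed here because identifiers have no names. Alternatives changed the signals, normalization, offset, filter, outlier spots, block and arrays used.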

Additional observations from a re-analysis of the deposited data

Results flagged for a closer look

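The values below differed between Rehydration and another state by a contrast in limma's fit, with the same sign on both Rehydration arrays for each named probe. The genotype difference after rehydration differed from that in Hydration at 4413 probes, from that in ABA at 2152 and from that in Dehydration at 2388. Against Hydration, the largest contrasts of the reported fit in the log2 difference of atg5 over WT were 2.96 at Pp1s149_4V6.1, 2.72 at Pp1s372_62V6.1, -3.29 at Pp1s80_148V6.1 and -3.82 at Pp1s33_372V6.1. Against ABA they were 2.06 at Pp1s372_62V6.1, 2.13 at Pp1s42_233V6.1, -3.67 at Pp1s33_372V6.1 and -2.86 at Pp1s442_22V6.1. Against Dehydration they were 2.33 at Pp1s42_233V6.1, 2.16 at Pp1s239_24V6.1, -3.24 at Pp1s33_372V6.1 and -3.20 at Pp1s72_43V6.1. At Pp1s33_372V6.1 WT was above background on 1 of the 2 Rehydration arrays. With processed signals its 3 contrasts were -2.45, -2.94 and -2.21 (limma adjusted p = 0.0428, 0.0448 and 0.0872), smaller in size than -2.82 at Pp1s80_148V6.1, -3.11 at Pp1s442_22V6.1 and -2.88 at Pp1s72_43V6.1 in this order.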

How the results depend on the processing

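Counts depended on the processing, and the cause was not tested. They are given in the order Rehydration, its contrasts with Hydration, ABA and Dehydration, and the probes apart from all 3 states, higher and lower. In the reported fit they were 2832, 4413, 2152, 2388, 318 and 395. With the replicate block they were 4352, 6770, 4013, 4367, 617 and 706. With processed signals they were 3981 (2077 higher and 1904 lower, 2135 shared with the reported calls), 2434, 1005, 705, 262 and 130. Median centring in place of loess gave 0 throughout (172, 1305, 101 and 119 at an unadjusted p under 0.05 in the first 4). An offset of 16 gave 1575 for the contrast with Dehydration, and 261 and 309 probes at least 2-fold higher and lower in Rehydration, against 117 and 179. Without a filter on dim probes, 38104 probes were tested and 2022 were called in Rehydration, 1357 and 1417 in the contrasts with ABA and Dehydration, and 192 and 230 stood apart. Probes above background in all Rehydration channels gave 2907 for the contrast with Hydration.

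Leaving out 1 array moved every count. Without Rehydration replicate 1 or 2 there were 1665 or 1101 calls (the 1101 split into 442 higher and 659 lower). The contrast with Hydration ranged from 2388 (without Hydration replicate 1) to 3140, and was 2787 without Rehydration replicate 2. The contrast with ABA ranged from 976 (without ABA replicate 2) to 1437, and was 1141 without ABA replicate 1 and 1068 without Rehydration replicate 2. The contrast with Dehydration ranged from 1106 (without Dehydration replicate 2) to 1405 (without Rehydration replicate 1), and was 1155 without Dehydration replicate 1 and 1258 without Rehydration replicate 2. Probes apart numbered 111 to 242 higher and 201 to 275 lower, lowest without Rehydration replicate 2. A lone array was assumed to vary like the other states. The 15 named probes kept their sign under each alternative run for them (the filter to all Rehydration channels leaves out Pp1s33_372V6.1 and the 4 probes above background in 1 genotype alone), and 245 of their values kept their side of the threshold. The other 29 were 27 with median centring and 2 with processed signals. With 19.3 to 30.6% of spots above background on the Rehydration arrays, differences at dim probes could not be measured well.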
